A study of Rattus norvegicus with 30 samples.

Results

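The deposited quantification of 30 rat kidneys covers 65166 targets, of which 40071 are Ensembl transcripts and 25095 are stretches of the genome named only by chromosome, start and end. Described here are 3218 of those genomic intervals, namely the ones that are shorter than 20000 bp, lie off chromosomes X and Y and had a mean level of at least 1 CPM over the 30 libraries, without the 200 intervals of the highest mean level. CPM is the estimated count scaled to 1e6 estimated counts on transcripts. The intervals were chosen by their measured level, since both the minimum and the upper boundary are mean CPM values over the same libraries, so their levels are a description and carry no test. Of 10783 short intervals off X and Y, 7409 stayed under 1 CPM on average, 156 were among the 200 highest intervals, and the 3218 described here (29.8%) remained. Another 2347 intervals passed the same level limits with a length of exactly 20000 bp, the longest length in the files, and serve as the comparison.

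The animals were Sprague-Dawley rats, an outbred stock, and each of the 30 libraries came from the poly-A RNA of 1 whole kidney, powdered before extraction. Controls received saline at 1 ml/kg. Treated animals received mercury chloride (HgCl2) at a low dose of 0.25 mg/kg or a high dose of 0.50 mg/kg, and kidneys were collected after 10 or 34 h, which gave 6 groups of 5. The labels give no genetic change, route of dosing, age or sex. At 10 h the library numbers of each dose form 1 unbroken run, and so do those of the low dose at 34 h. The numbers of saline kidneys at 34 h all come after those of saline kidneys at 10 h. In comparisons with these groups, dose or time and anything that followed the library numbers cannot be told apart.

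Inorganic mercury binds thiol groups, is taken up by the cells of the proximal tubule and is a classical cause of acute injury there. Mammalian genomes are transcribed well beyond annotated exons: long noncoding RNAs, extensions of genes past their annotated ends and introns of unspliced transcripts all give RNA outside known mRNAs, mostly at low levels. An aligner that is offered such stretches as targets of their own assigns reads to them in competition with the transcripts. The labels do not say which kind of RNA each interval holds, and no annotation of the build Rnor_6.0, in which the intervals are named, was used to place them in genes, introns or UTRs. For the same reason the tissue label could not be set against marker genes.

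Estimated counts on transcripts were 20.2 to 39.1 M per library (M, mega; median 30.2 M), and the 3218 intervals together took 1.84 to 2.68% of all counts (median 2.46%). The median interval had 74.6 counts in the library with the fewest and 141 in the library with the most. No 2 libraries of a group were alike within counting error, with a chi-square per degree of freedom over the intervals of 3.46 to 24.5 in 60 pairs. A library was taken to stand apart where 100 or more of its transcripts were more than 2-fold above or below the whole range of the rest, which held for 4 libraries: saline 10 h replicate 2, high dose 10 h replicate 2, and high dose 34 h replicates 3 and 4. Among the short intervals, high dose 34 h replicate 4 had 147 lying over 2-fold below all other libraries and 1 above. Its transcripts leaned the same way, with 426 below and 61 above, of those that reached 1 CPM in any library. Fewer short intervals stood out in high dose 10 h replicate 2 (12 above, 3 below), high dose 34 h replicate 3 (9 above, 8 below) and saline 10 h replicate 2 (2 above, 0 below). The transcripts of these libraries had 116 above and 23 below, 251 above and 82 below, and 280 above and 1 below. In each of the other libraries at most 1 short interval stood out in each direction, beside at most 17 transcripts above and 10 below.

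The short intervals were spread over the whole genome. Numbered chromosomes held 3201 of them and 9 unplaced scaffolds the other 17. The share of a chromosome's short intervals that reached the level limits ran from 22.3% on chromosome 15 to 35.7% on chromosome 5. No intervals in the files overlap. The shortest gap between neighbours is 1049 bp and the median gap is 44101 bp, and 1400 of the 3218 have another of the 3218 as the next interval in the list.

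Their lengths ran from 1008 to 19981 bp with a median of 8688 bp (quartiles 4794 and 13828 bp). The shortest were chr17:48647371-48648378 (1008 bp, 1.66 CPM), chr8:62526704-62527725 (1022 bp, 8.85 CPM) and chr1:219413390-219414415 (1026 bp, 1.11 CPM). The longest were chr15:103676076-103696056 (19981 bp, 30.2 CPM), chr1:265764938-265784908 (19971 bp, 3.67 CPM) and chr13:60825850-60845807 (19958 bp, 1.18 CPM). Longer intervals more often reached the level limits. The share of short intervals kept was 18.6% at 1000 to 2000 bp, 26.5% at 2000 to 5000 bp, 31.1% at 5000 to 10000 bp, 32.8% at 10000 to 15000 bp and 35.2% at 15000 to 20000 bp. Since the limit is set on a count that is not divided by length, a longer interval reaches it at a lower level per base.

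Levels were low. Mean CPM ran from 1.00 to 48.9 with a median of 3.65 (quartiles 1.75 and 9.95), and the 321 intervals of the highest mean CPM held 40.8% of the summed CPM. The highest were chr4:168183598-168194427 (48.9 CPM), chr14:20953597-20959552 (48.9 CPM) and chr8:82157118-82170996 (48.8 CPM). Just outside the boundary to the 200 highest lay chr5:156878987-156897142 and chr13:90753082-90758759, both at 49.3 CPM. At the lower limit, chr3:8377359-8388523 was just inside at 1.0006 CPM and chr10:83313967-83327909 at 1.0011 CPM, while chr3:123417978-123433908 (0.9997 CPM) and chr1:198684899-198690293 (0.9996 CPM) were just outside. The neighbours on either side of both limits therefore differed by far less than the spread between animals.

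Per length, the deposited TPM gives a median of 0.575 for the short intervals (range 0.0604 to 56.4), against 0.127 for the 20000-bp intervals, 10.1 for the 200 highest intervals and 9.17 for 17242 transcripts of at least 1 mean CPM. Median TPM fell from class to class of length, at 2.77, 1.69, 0.587, 0.298 and 0.203 from the shortest to the longest, while median CPM stayed between 3.01 and 4.72 in all 5. Over the 3218 intervals the rank correlation (Spearman's rho) of length was -0.0845 with mean CPM and -0.603 with mean TPM. Both are descriptions across intervals that share libraries, and the second follows in part from dividing by length.

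**Figure D1:**
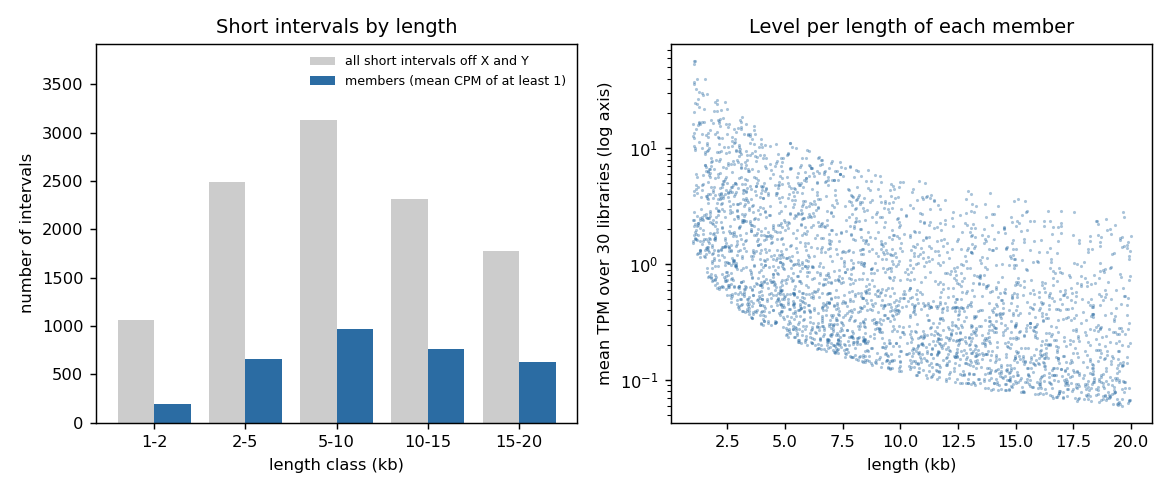
Left, the number of short intervals off X and Y and of those with a mean CPM of at least 1 (without the 200 highest intervals) in 5 length classes in kb. Right, each of the 3218 intervals by length in kb and mean TPM over 30 libraries on a log axis. The lower edge of the points falls with length, since the limit of 1 CPM is not divided by length, and the median TPM was 2.77 in the shortest and 0.203 in the longest class.

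Detection was nearly complete in every kidney. Counts were above 0 in all 30 libraries for 3205 intervals, and 3093 (96.1%) had at least 10 estimated counts in each. Only 301 (9.35%) had whole counts in every library, within 1e-06, against 40.5% of transcripts of at least 1 mean CPM. For the others, part of the reads also matched another target and was shared out by the aligner, so that their levels are uncertain to the extent of that split. A single library put few intervals over the lower limit. Without their highest library 44 would fall under 1 mean CPM, and 47 had a median CPM under 1.

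The spread between animals of 1 group, as the SD of log2(CPM + 0.5) pooled over the 6 groups, had a median of 0.255 (range 0.0692 to 1.61). It was under 0.5 in 95.6% of intervals, over 0.5 in 143 and over 1 in 18. The spread fell with level. In the classes of 1 to 2, 2 to 5, 5 to 10, 10 to 20 and 20 to 50 mean CPM the median SD was 0.280, 0.265, 0.237, 0.1999 and 0.181, where counting alone would give 0.223, 0.151, 0.098, 0.0706 and 0.0486. The counting values carry no pseudocount, while the 0.5 added to CPM narrows the observed SD, most at low levels. The observed and counting values are therefore not on the same scale, and the share of counting error in the spread was not estimated. At 10 or more CPM, the SD between animals exceeded that of counting in both classes.

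Set beside other targets of the same level, the short intervals varied less than the 20000-bp intervals in all 5 classes, where those had median SDs of 0.308, 0.316, 0.304, 0.289 and 0.319. Against transcripts the order turned with level: transcripts had 0.362, 0.328 and 0.261 in the lower 3 classes and 0.204 and 0.164 in the upper 2. These are medians over different targets in the same 30 libraries, given without a test. They include the 4 libraries that stand apart, and the comparison between kinds of target is not given without them. Between groups, the median SD of the short intervals was 0.179, 0.204 and 0.237 in saline, low dose and high dose at 10 h, and 0.196, 0.182 and 0.327 at 34 h. The highest value is that of the group with 2 of the 4 libraries that stand apart.

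**Figure D2:**
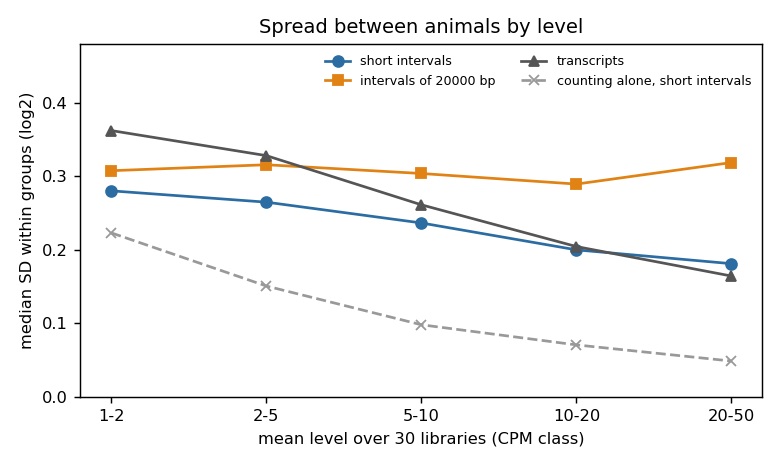
Median SD between animals of a group, on the log2 scale, in 5 classes of mean CPM for short intervals, 20000-bp intervals and transcripts, with the SD that counting alone would give to the short intervals (dashed). The short intervals fall from 0.280 to 0.181, while the 20000-bp intervals stay between 0.289 and 0.319. The dashed values were computed without a pseudocount, unlike the other lines.

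The summed level of the 3218 intervals was 26598 ± 410 CPM (SD, n = 5) in saline, 26852 ± 1253 in low dose and 26345 ± 1892 in high dose kidneys at 10 h. At 34 h it was 26147 ± 1268, 25808 ± 996 and 25100 ± 2831 CPM. The groups overlapped. Since kidneys were powdered whole, fewer cells of a type and less RNA per cell cannot be told apart in any of these values. Over all 30 libraries the median was 26463 CPM and the highest value 28842 CPM, in low dose 10 h replicate 5. The lowest was 20244 CPM in high dose 34 h replicate 4, followed by 23177 CPM in high dose 10 h replicate 2. After TMM scaling, which rescales libraries by the bulk of their transcripts, high dose 34 h replicate 4 stayed lowest at 21224 CPM and the others lay between 23037 and 28448 CPM.

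**Figure D3:**
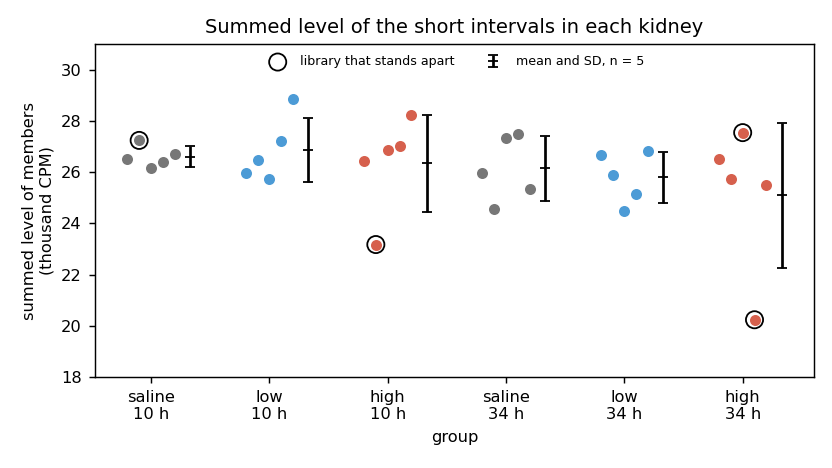
Summed CPM of the 3218 short intervals in each kidney, by group, with the mean and SD of each group (n = 5) and rings around the 4 libraries that stand apart. The axis does not start at 0. High dose 34 h replicate 4 lies lowest at 20244 CPM.

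In high dose 34 h replicate 4, 2662 of the 3218 intervals (82.7%) were lower than the median of the other 4 kidneys of the group. The median difference over all 3218 was -0.46 on the log2 scale. The median log2 difference was -0.67 for the 20000-bp intervals and -0.08 for transcripts. The difference grew with length. It was -0.25 at 1000 to 2000 bp, -0.30 at 2000 to 5000 bp, -0.46 at 5000 to 10000 bp, -0.54 at 10000 to 15000 bp and -0.58 at 15000 to 20000 bp. Transcripts of the same length classes had -0.08, -0.07, -0.07 and -0.11, and 0.02 in the longest class, which holds only 25 transcripts.

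The step from the shortest to the longest class was -0.34 in that library and lay between -0.22 and 0.14 in the other 29. Low dose 10 h replicate 4 had the value of -0.22, going from 0.15 to -0.07. High dose 10 h replicate 2, the next lowest in summed level, had the opposite order, with -0.26 in the shortest class and -0.12 in the longest. In the 26 libraries that do not stand apart, the median difference of all short intervals from the other 4 kidneys of the group was between -0.11 and 0.12. The summed level of the 200 highest intervals, which are no members of the set, was the highest in high dose 34 h replicate 4, at 71623 CPM. The median over all libraries was 26730 CPM, and the next highest value was 53108 CPM in saline 10 h replicate 4. A sum does not show how many of the 200 intervals were higher in high dose 34 h replicate 4. The part of RNA quality or cell composition in the low level of this library was not tested.

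**Figure D4:**
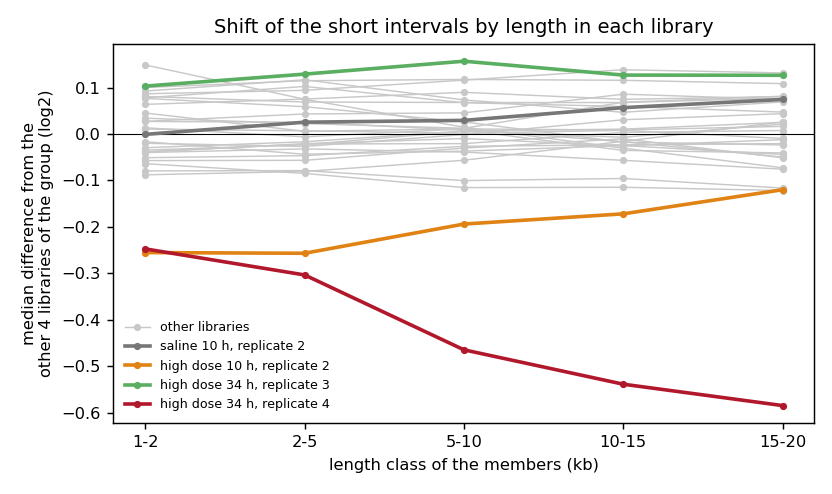
Median log2 difference of each library from the other 4 of its group, for short intervals of 5 length classes in kb, with the 4 libraries that stand apart in colour and dark grey and the other 26 in light grey. High dose 34 h replicate 4 goes from -0.25 to -0.58, while the light grey lines stay between -0.12 and 0.15.

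Dose and time were compared interval by interval with edgeR's quasi-likelihood test, fitted on all 35237 targets that passed its filter on low counts, with Benjamini-Hochberg adjustment over all of them. All 3218 intervals passed that filter. EdgeR left few calls after adjustment. The number of intervals at an unadjusted p under 0.05 is therefore given in each direction beside the same share of all 35237 targets. The calls of DESeq2 and of limma voom with quality weights at an adjusted p under 0.05 are given too. DESeq2 gives no adjusted p to targets set aside by its own filters, so its counts have smaller bases.

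At 10 h, low dose against saline, edgeR called 0 intervals after adjustment (0% of all targets). At an unadjusted p under 0.05, edgeR had 111 intervals higher (3.45%, against 4.2% of all targets) and 88 lower (2.73%, against 3.62%). DESeq2 called 6 of 2960 (0.203%, against 0.376%) and limma voom 0 (against 0%). On the log2 scale the median fold change was 0.00 for the short intervals and 0.01 for all targets. The counts depended on single kidneys. Without low dose replicate 4 they became 207 higher and 172 lower with 1 call (8.32% and 6.52% of all targets, with 5 called). The number lower fell to 45, 54 or 55 without low dose replicate 2, 1 or 3 (2.45%, 2.53% and 2.4% of all targets). It fell to 57 or 56 without saline replicate 1 or 2 (2.99% and 3.04%).

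High dose against saline at 10 h gave the single edgeR call of all 8 comparisons, 1 interval, which was higher (0.00568% of all targets were called). At an unadjusted p under 0.05, 131 were higher (4.07%, against 5.91% of all targets) and 121 lower (3.76%, against 4.97%) by edgeR. DESeq2 called 41 of 2115 (1.94%, against 3.34%), and limma voom called 1 (against 0.00568%). Short intervals had a median log2 fold change of 0.02, and all targets one of 0.03. Leaving out high dose replicate 2, which stands apart, raised the number higher to 255 (7.92% of all targets). Leaving out saline replicate 3 lowered it to 85 (4.15% of all targets).

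High dose against low dose at 10 h had the most intervals at an unadjusted p under 0.05 by edgeR, 160 higher (4.97%, against 6.74% of all targets) and 176 lower (5.47%, against 6.62%). After adjustment edgeR called 0 (0% of all targets). DESeq2 called 57 of 2311 (2.47%, against 5.29%), and limma voom called 35 (against 2.19%). The median log2 fold change was 0.01 for the short intervals and 0.00 for all targets. Without high dose replicate 2 the edgeR counts were 332 higher and 178 lower (9.84% and 9.49% of all targets), with 4 called among 88 of all 35237 targets. Lower numbers came from leaving out low dose replicate 2 (104 higher, 4.51% of all targets) or low dose replicate 3 (97 higher, 5.11%). The same held for high dose replicate 4 (103 higher and 112 lower, 4.83% and 4.63% of all targets).

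At 34 h, low dose against saline left 0 edgeR calls among the intervals (0.0114% of all targets). At an unadjusted p under 0.05, edgeR gave 102 higher (3.17%, against 5.58% of all targets) and 143 lower (4.44%, against 5.24%). DESeq2 called 12 of 1679 (0.715%, against 1.92%) and limma voom 0 (against 0.00568%). The median log2 fold change was -0.03 for the short intervals and 0.00 for all targets. Without saline replicate 4 the number lower fell to 84 (3.81% of all targets).

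High dose against saline at 34 h tilted downwards: by edgeR at an unadjusted p under 0.05, 19 intervals were higher (0.59%, against 2.42% of all targets) and 89 lower (2.77%, against 2.05%). EdgeR called 0 after adjustment (0% of all targets), DESeq2 1 of 3212 (0.0311%, against 0.12%) and limma voom 0 (against 0%). The median log2 fold change was -0.10, beside -0.03 for all targets and -0.09 for the 20000-bp intervals. The tilt was smaller without high dose replicate 4, at 62 higher and 92 lower with a median of -0.04 (3.22% and 2.49% of all targets). Without both high dose kidneys that stand apart it was gone in the counts, at 82 higher and 68 lower with a median of -0.03 (3.36% and 2.15% of all targets). The number lower was also 58, 45 or 39 without saline replicate 1, 3 or 4 (1.81%, 1.37% and 1.36% of all targets). The number higher was 12 without saline replicate 2 or 3 (1.72% and 1.74%) and 31 without high dose replicate 5 (3.26%).

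High dose against low dose at 34 h had the fewest intervals at an unadjusted p under 0.05, with 21 higher (0.653%, against 1.31% of all targets) and 51 lower (1.58%, against 1.72%) by edgeR. No test called an interval after adjustment: edgeR 0 (0% of all targets), DESeq2 0 of 3212 (against 0.0114%) and limma voom 0 (against 0%). Their median log2 fold change was -0.07, and that of all targets -0.03. It was -0.01 without high dose replicate 4, with 54 higher and 43 lower (1.91% and 1.7% of all targets). With library sizes over all targets the counts were 30 higher and 45 lower (1.86% and 1.43% of all targets). Other kidneys moved single counts, with 101 lower without high dose replicate 2 (2.88% of all targets) and 30 lower without low dose replicate 5 (1.45%). The number higher was 12 without low dose replicate 2 or 3 (0.939% and 0.922%) and 13 without low dose replicate 4 (0.996%).

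Between the saline groups, 34 h against 10 h, edgeR called 0 intervals (0.00284% of all targets), DESeq2 1 of 1953 (0.0512%, against 0.456%) and limma voom 0 (against 0.00284%). At an unadjusted p under 0.05 by edgeR, 80 were higher (2.49%, against 3.4% of all targets) and 76 lower (2.36%, against 4.18%). The median log2 fold change was -0.02, the same as over all targets. With library sizes over all targets the counts were 103 and 64 (4.08% and 3.57% of all targets). Without saline 10 h replicate 2, which stands apart, 47 were lower (2.83% of all targets). The high dose effect at 34 h was also set against that at 10 h in 1 model. EdgeR called 0 intervals for this difference (0% of all targets), DESeq2 5 of 1802 (0.277%, against 0.635%) and limma voom 0 (against 0.00284%). At an unadjusted p under 0.05 by edgeR, 58 were higher at 34 h (1.8%, against 4.91% of all targets) and 147 lower (4.57%, against 5.22%), with a median log2 difference of -0.12, beside -0.06 for all targets. Without high dose 34 h replicate 4 these became 103 and 115 with a median of -0.04 (5.14% and 4.59% of all targets). With library sizes over all targets they were 92 and 108 (6.01% and 3.43% of all targets). The number lower was 271 without high dose 10 h replicate 2 (6.82% of all targets). It was 96 without saline 10 h replicate 3 (4.03%) or saline 34 h replicate 4 (3.85%). The number higher was 35 without high dose 10 h replicate 4 (3.64%).

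Read against all targets, the share of short intervals at an unadjusted p under 0.05 was below the background in both directions in each of the 8 comparisons, except for those lower with the high dose against saline at 34 h. Without the libraries that stand apart the exceptions were others. At 10 h, those higher with the high dose exceeded the background against saline (217 of 3218, against 6.24% of all targets). Against low dose they also exceeded it (332 of 3218, against 9.84%). So did those lower for the difference of high dose effects (207 of 3218, against 5.84%). Those lower with the high dose against saline at 34 h did not (68 of 3218, against 2.15%). The comparisons share control and treated libraries, so they are not independent of each other. Over the 6 group means, 2704 of the 3218 intervals spanned less than 1.5-fold from the lowest to the highest mean CPM, the median span was 1.28-fold, and 74 spanned more than 2-fold.

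The called interval was chr14:46567362-46580400 (13039 bp, 1.90 mean TPM). At 10 h its CPM was 14.3, 14.8, 15.8, 14.9 and 17.3 in the saline kidneys (15.4 ± 1.18, SD, n = 5). In the low dose kidneys CPM was 20.5, 16.2, 16.1, 25.1 and 14.9 (18.6 ± 4.21). High dose kidneys had 40.2, 35.5, 33.1, 38.1 and 25.4 CPM (34.5 ± 5.75). All 5 high dose kidneys lay above all saline and all low dose kidneys. The log2 fold change of high dose over saline was 1.17 ± 0.12 (SE), with an adjusted p of 0.0217 by edgeR. The difference between high and low dose was 0.91 ± 0.17 (adjusted p = 0.125, edgeR) and that between low dose and saline 0.25 ± 0.14 (adjusted p = 0.693, edgeR).

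At 34 h the same interval had 21.8 ± 4.19 CPM in saline (16.3 to 27.6), 19.6 ± 7.26 in low dose (11.0 to 30.1) and 18.7 ± 10.8 in high dose kidneys (5.09 to 32.9). The 3 groups overlapped fully, and the log2 fold change of high dose over saline was -0.25 ± 0.41 (adjusted p = 0.971, edgeR). The difference between the times in the high dose effect, -1.42 ± 0.45, did not pass the test (adjusted p = 0.370, edgeR). Its counts were not whole, so part of its reads also matched other targets. The call was lost when saline replicate 1, 2, 3 or 4 or high dose replicate 4 was left out (adjusted p of 0.0655 to 0.140, edgeR), with the 4 libraries that stand apart removed (0.0929) and in a single fit of all 30 libraries (0.127). DESeq2 gave it an adjusted p of 8.44e-14 and limma voom 0.0297, and the log2 fold change stayed between 1.09 and 1.26 whichever kidney was left out.

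In the other comparisons, the interval of smallest p by edgeR is given, none of which passed. For low dose against saline at 10 h this was chr4:81241784-81243969 (2186 bp, whole counts). Its CPM was 9.19, 8.55, 8.71, 9.44 and 7.94 in saline (8.77 ± 0.58) and 13.7, 17.5, 15.4, 12.2 and 13.9 in low dose kidneys (14.6 ± 2.03). The groups did not overlap, and the log2 fold change was 0.71 ± 0.10 (adjusted p = 0.356, edgeR). The high dose mean of that time lay between, at 11.1 ± 1.18 CPM, with kidneys from 9.24 to 12.4 that overlapped both other groups, so the means did not follow the order of dose. DESeq2 gave the low dose difference an adjusted p of 1.11e-06.

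For high against low dose at 10 h the interval was chr2:234483650-234490820 (7171 bp). Low dose kidneys had 17.1, 23.7, 17.6, 19.0 and 19.5 CPM (19.4 ± 2.64) and high dose kidneys 28.6, 27.2, 28.9, 29.7 and 33.1 CPM (29.5 ± 2.22). Saline kidneys, at 21.2 ± 1.09 CPM, also lay below all high dose kidneys. The log2 fold change over the low dose was 0.63 ± 0.10 (adjusted p = 0.105, edgeR). It passed with DESeq2 (3.31e-06), with limma voom (0.0303), in the edgeR fit of all 30 libraries (0.0196) and in edgeR without the libraries that stand apart (0.0402). At 34 h its group means were 24.9, 25.3 and 24.6 CPM in saline, low and high dose, and the groups overlapped.

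Low dose against saline at 34 h was led by chr16:20439708-20442109 (2402 bp, whole counts), with 6.11, 8.61, 7.84, 5.93 and 5.77 CPM in saline (6.85 ± 1.29) and 3.42, 3.91, 3.40, 4.14 and 4.87 CPM in low dose kidneys (3.95 ± 0.61). The groups did not overlap, and the log2 fold change was -0.80 ± 0.15 (adjusted p = 0.242, edgeR). In saline kidneys at 10 h its CPM was 4.60 ± 1.43, with 4 kidneys at 3.71 to 4.08 and 1 at 7.13, so the saline level at 34 h was the higher of the saline values. For high dose against saline at 34 h the interval was chr4:123510718-123516287 (5570 bp), at 3.88, 4.30, 3.27, 3.82 and 3.34 CPM in saline (3.72 ± 0.43) and 6.80, 6.74, 5.27, 5.39 and 5.76 CPM in high dose kidneys (5.99 ± 0.74). It was the single interval that DESeq2 called there (0.0337), while edgeR gave a log2 fold change of 0.66 ± 0.16 and an adjusted p of 0.956. Its 10 h values were uneven within the low dose group, at 6.97, 8.17 and 7.14 CPM in 3 kidneys and 2.95 and 2.88 CPM in the other two.

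High against low dose at 34 h was led by chr11:73679485-73693313 (13829 bp, 4.96 ± 0.38 CPM in low and 6.68 ± 0.84 in high dose kidneys), with a log2 fold change of 0.40 ± 0.11 (adjusted p = 0.999, edgeR). Between saline kidneys of 10 and 34 h it was chr3:66264462-66268447 (3986 bp), at 2.38 ± 0.30 and 1.39 ± 0.22 CPM, a log2 fold change of -0.77 ± 0.17 (adjusted p = 0.650, edgeR). For the difference of the high dose effect between the times, the smallest p was that of chr10:37583668-37594077 (10410 bp). There the means were 2.92 ± 0.58 CPM in saline and 4.67 ± 0.83 in high dose kidneys at 10 h, and 4.12 ± 1.33 and 1.88 ± 0.65 at 34 h. The difference of effects was -1.84 ± 0.38 on the log2 scale (adjusted p = 0.339, edgeR; 0.00399 with DESeq2).

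**Figure D5:**
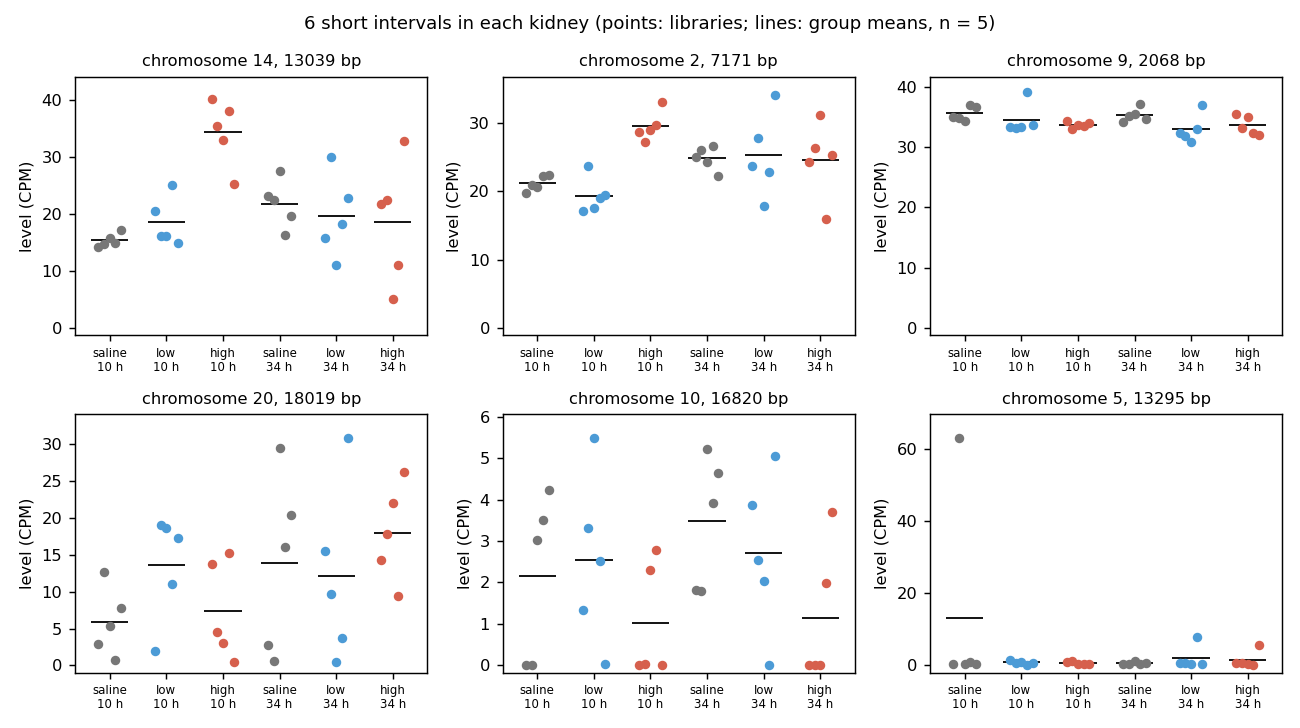
CPM in each kidney (points) and group means (lines, n = 5) for 6 short intervals: the called interval on chromosome 14, the leading interval of high against low dose on chromosome 2, the steadiest interval on chromosome 9, and 3 of the 5 widest, on chromosomes 20, 10 and 5. The high dose kidneys at 10 h lie above saline and low dose on chromosomes 14 and 2, and a single saline kidney reaches 63.1 CPM on chromosome 5.

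None of the 5 widest intervals passed a test of dose or time by edgeR. The largest pooled SD, 1.61, was that of chr1:41595300-41607917 (12618 bp). Its CPM ran from 0.138 to 16.0 over the 30 kidneys with a median of 4.81, and each group held both low and high kidneys. In saline at 34 h, for example, CPM was 10.5 and 9.39 in 2 kidneys and 0.672, 0.161 and 0.279 in the other three. The next, chr20:2566038-2584056 (18019 bp, SD 1.53), ran from 0.493 to 30.9 CPM with a median of 11.8. Its low values were spread over saline at both times, low dose at both times and high dose at 10 h, while the 5 high dose kidneys at 34 h had 9.34 to 26.2 CPM.

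Some intervals were near 0 in most kidneys and high in a few. On an unplaced scaffold, the interval of bases 502 to 12831 (12330 bp, SD 1.43) had a median of 0.238 CPM. It reached 26.9 CPM in saline 34 h replicate 1, 8.20 CPM in low dose 34 h replicate 5 and 10.2 CPM in high dose 34 h replicate 3, and was at 0 in 2 libraries. The interval chr5:77903614-77916908 (13295 bp, SD 1.38) had a median of 0.550 CPM and 63.1 CPM in saline 10 h replicate 2, a library that stands apart. Its next values were 7.79 CPM in low dose 34 h replicate 4 and 5.58 CPM in high dose 34 h replicate 5. These 2 intervals owe their place above the lower level limit to 1 to 3 kidneys.

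The reverse pattern was seen in chr10:45072145-45088964 (16820 bp, SD 1.36). Its CPM was 1.33 to 5.49 in 20 kidneys and at most 0.0355 in the other 10, which came from 5 of the 6 groups. Saline kidneys at 34 h had no such value. Listed at 0 in 5 libraries, the most of any of the 3218, was chr14:5860082-5868136 (8055 bp, 1.13 mean CPM). Its CPM was 6.66 in saline 10 h replicate 3, 6.77 in high dose 10 h replicate 2, 6.56 in saline 34 h replicate 1 and 7.28 in high dose 34 h replicate 1, and at most 0.725 in the other 26 kidneys. Neither low dose group held a high kidney. Over all 3218 intervals, the highest library was more than 10 times the median in 8 and more than 5 times in 18, and the median was more than 3 times the lowest library in 482.

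At the other end, 791 intervals had a pooled SD under 0.2. The steadiest was chr9:41303003-41305070 (2068 bp, whole counts, SD 0.0692), with a range of 30.8 to 39.2 CPM over the 30 kidneys and group means of 33.0 to 35.6 CPM. Next came chr3:171869148-171877642 (8495 bp, SD 0.0762, 34.0 to 42.0 CPM) and chr5:169482532-169485757 (3226 bp, SD 0.0776, 31.8 to 39.8 CPM). All 3 belong to the highest level class, in which counting alone gives an SD of 0.0486. High dose 34 h replicate 4 lay within these ranges, at 32.3 CPM for the interval on chromosome 9, whereas chr14:20953597-20959552 was at 14.7 CPM in that kidney and 37.1 to 63.9 CPM in the other 29.

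The longest interval, chr15:103676076-103696056, had an uneven pattern among treated kidneys. Its CPM was 67.4, 62.5, 70.5, 25.04 and 21.2 in the low dose kidneys at 10 h and 34.3, 59.9, 24.6, 22.3 and 21.04 in the high dose kidneys, against 18.2 to 21.02 in saline. At 34 h the low dose kidneys had 24.2 to 32.1, the high dose kidneys 23.2 to 38.2 and the saline kidneys 17.1 to 23.0 CPM. All 10 treated kidneys of each time lay above all 5 saline kidneys of that time, but no comparison of this interval passed after adjustment. Over saline, the log2 fold change by edgeR was 1.30 ± 0.35 (low dose, adjusted p = 0.639) and 0.72 ± 0.26 (high dose, 0.399) at 10 h, and 0.52 ± 0.11 (0.283) and 0.60 ± 0.14 (0.956) at 34 h. Its counts were not whole.

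Joining intervals with a gap of at most 50000 bp gave 1837 that stood alone, 383 pairs and 95 runs of 3, and longer runs of up to 9. The runs with the most members were chr4:78161140-78335923 and chr7:116873013-117039392 with 9 intervals each and chr10:55516386-55706663 with 8. Neighbours within a run differed widely in level per length. On chromosome 4 mean TPM ran from 0.105 to 2.30, on chromosome 7 from 0.102 to 2.41 and on chromosome 10 from 0.154 to 1.65. Within the run on chromosome 10, chr10:55618372-55626241 had an SD of 0.679 and CPM values from 0.0280 to 3.85, while chr10:55516386-55531576 had an SD of 0.185 and 1.36 to 2.77 CPM.

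Neighbours also varied together only weakly within groups. The correlation of 2 intervals over the 30 libraries, after removing group means, had a median of 0.298 for 272 pairs under 10000 bp apart, 0.211 for 771 pairs at 10000 to 50000 bp and 0.182 for 1830 pairs at 50000 to 200000 bp. For 4835309 pairs on different chromosomes the median was 0.159. Without the 4 libraries that stand apart, the medians were 0.152 for pairs under 10000 bp and 0.0579 for pairs on different chromosomes. The values are descriptions over pairs that share libraries and depth. In the runs the median r was 0.213 on chromosome 4, 0.334 on chromosome 7 and 0.205 on chromosome 10, with pairs from -0.393 to 0.639. Without the 4 libraries that stand apart, these medians were 0.0967, 0.325 and 0.119.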

How the data were processed

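Per the labels, RNA of powdered whole kidneys was read as 75-bp pairs from stranded poly-A libraries. The deposited estimated counts and TPM values (counts per effective length, scaled to a common sum) come from kallisto 0.42.2 with Rnor_6.0, per the submitters' processing notes. The sources used here do not give the annotation release, the kallisto options or how intervals were picked.

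The set of intervals and all lists were chosen with earlier results of these data known. Groups come from the labels. Replicates are numbered 1 to 5 in accession order, which ties none across groups. The p-values set the difference between groups against the spread between these samples within groups, estimated in part from all targets fitted. CPM was computed on the transcripts' summed estimated counts, before TMM unless said otherwise, and spread on log2(CPM + 0.5).

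Estimated counts were rounded, and the 35237 targets that passed filterByExpr were fitted with edgeR 4.0.16 (robust quasi-likelihood, TMM and library sizes from transcripts) on the groups compared. An adjusted p under 0.05 was a call. The SE is the log2 fold change divided by the square root of F. Alternatives were DESeq2 1.42.0, its size factors, limma 3.58.1 voom, no filter, library size over all targets, 1 fit of all libraries, removal of the 4 libraries that stand apart, and each library left out. Removal of libraries for the summed level, the spread and the size of the set, and TMM for the summed level, were chosen after seeing the data. The test was tried on simulated counts, drawn independently for each target and without libraries that stand apart. That trial cannot show how the test behaves where a library shifts many targets together. R 4.3.3, Python 3.11.15, numpy 2.4.6, pandas 2.3.3, scipy 1.17.1 and matplotlib 3.10.9 were used.

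Intervals were named by rule: in each comparison the called ones or else that of smallest p, the 3 highest, shortest and longest, those next to each limit, the 5 widest and 3 steadiest, the 3 largest runs, and those at 0 in at least 5 libraries. Which of these are given kidney by kidney, and the 2 contrasted within the run on chromosome 10, was decided after their values were seen. No interval sequence is printed.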

Additional observations from a re-analysis of the deposited data

Results flagged for a closer look

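In each group of 5, the highest or lowest kidney was set against the rest for the summed level and for 17 named intervals. Its gap to the nearest other kidney was compared with the range of the group, with a critical value of 0.71. Of 108 groups, 17 were past it. Chance flags about 1 in 20 groups, but several intervals were named for a wide spread or for zeros, so their flags follow from that choice and the number is not to be read against that rate. The summed level of the short intervals in high dose 34 h replicate 4 (20243.8 CPM) was 1 of them, on the low side.

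Among intervals near 0 in most kidneys, single high kidneys stood out. On the unplaced scaffold (bases 502 to 12831) these were saline 34 h replicate 1 at 26.89 CPM, low dose 34 h replicate 5 at 8.198 CPM and high dose 34 h replicate 3 at 10.18 CPM. For chr5:77903614-77916908 they were saline 10 h replicate 2 at 63.07 CPM, saline 34 h replicate 3 at 1.153 CPM, low dose 34 h replicate 4 at 7.786 CPM and high dose 34 h replicate 5 at 5.582 CPM. For chr14:5860082-5868136, 1 kidney in each of 4 groups stood out, at 6.657 CPM (saline 10 h replicate 3), 6.773 CPM (high dose 10 h replicate 2), 6.562 CPM (saline 34 h replicate 1) and 7.278 CPM (high dose 34 h replicate 1).

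Of the intervals of smallest p, chr16:20439708-20442109 had 1 high saline kidney at 10 h (replicate 5, 7.133 CPM). For chr3:66264462-66268447, saline 34 h replicate 2 was low at 1.007 CPM and high dose 34 h replicate 3 high at 4.508 CPM. High dose 34 h replicate 3 was also low for chr10:37583668-37594077, at 0.754 CPM. Even the steadiest interval, chr9:41303003-41305070, had 1 kidney past the limit, low dose 10 h replicate 4 at 39.18 CPM.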

How the results depend on the processing

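The fold changes of the called interval and of the intervals of smallest p kept their sign under the alternatives run. The median fold change of the short intervals changed sign in some fits where it was near 0. For low dose at 10 h it went from 0.00 in the main edgeR fit to -0.01 with limma voom or library sizes over all targets. It also changed sign with 1 library left out in the 3 comparisons at 10 h and between the saline groups. For high against low dose at 34 h it went from -0.07 to 0.00 without the libraries that stand apart. Counts of called intervals depended on the tool. DESeq2 called 6 (low dose), 41 (high dose) and 57 (high against low) at 10 h, 12 (low dose) and 1 (high dose) at 34 h, 1 between the saline groups and 5 for the difference of high dose effects, where edgeR called 0, 1, 0, 0, 0, 0 and 0. Of all targets with an adjusted p, DESeq2 called 0.376%, 3.34%, 5.29%, 1.92%, 0.12%, 0.456% and 0.635%, in that order. Limma voom called 35 for high against low dose at 10 h, of 771 among all 35237 targets. A single fit of all 30 libraries gave 0 for high dose against saline and 11 for high against low dose at 10 h, of 7 and 311 among all 35237 targets. Without the 4 libraries that stand apart these were 0 and 4, of 0 and 88. At 10 h, leaving out 1 library gave 0 to 1 calls for low dose, with 1 of 5 among all targets without low dose replicate 4. For high dose it gave 0 to 1, of 0 to 3 among all targets. For high against low dose it gave 0 to 4, with 4 of 88 among all targets without high dose replicate 2. In the other comparisons it gave 0. The cause of these differences between settings was not tested.

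The median SD was 0.301 with a pseudocount of 0.1 and 0.170 with a pseudocount of 2, which shrinks low values. It was 0.210 without the libraries that stand apart and 0.224 to 0.258 with 1 library left out. The set held 3209 to 3238 intervals with 1 library left out, 4486 with a limit of 0.5 CPM, 2254 with 2 CPM, 3185 with the median in place of the mean and 3103 with CPM over all targets. The median summed level was 26440 to 26486 CPM with 1 library left out. No paired analysis was possible because the labels carry no replicate numbers. Depth limits the lowest class most, since a median of 41.9 counts at 1 to 2 CPM gives a counting SD of 0.223 without a pseudocount.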

Other observations

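The 5 widest intervals did not vary together. Among them, after removing group means, the highest correlation of any pair over the 30 libraries was 0.452, between chr1:41595300-41607917 and the interval on the unplaced scaffold. Of all short intervals, the one most like chr20:2566038-2584056 was chr20:9930206-9948407 on the same chromosome (r = 0.804, and 0.816 without the 4 libraries that stand apart). For chr1:41595300-41607917 it was chr14:17116465-17122860 (r = 0.726), for the scaffold interval chr2:22059651-22061550 (0.731), for chr5:77903614-77916908 chr16:54450927-54459566 (0.856, and 0.712 without those libraries) and for chr10:45072145-45088964 chr3:8325581-8337983 (0.620). Each is the highest of the correlations with all other short intervals and is given as a description.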
